A study of Arabidopsis thaliana with 12 samples.

Results

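The salicylate synthesis and response genes described here are 10 genes of Arabidopsis thaliana: PR1 (AT2G14610), PR2 (AT3G57260), PR5 (AT1G75040), ICS1 (AT1G74710), EDS5 (AT4G39030), PBS3 (AT5G13320), PAD4 (AT3G52430), SAG101 (AT5G14930), NPR1 (AT1G64280) and NIMIN1 (AT1G02450). They were chosen by locus. A probe set was used when its assigned transcripts named a single locus and that locus was one of the 10. All 10 were found, each with 1 such probe set, among 21363 genes that the array measures in this way. The symbol table lists PR2 as BGL2 and ICS1 as EDS16.

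The study compared wild-type Col-0 plants (WT) with the pdx1.3 ko mutant in the same ecotype, called pdx1.3 or the mutant here, in which PDX1.3, one of the synthase subunits of vitamin B6 synthesis, is knocked out. Leaves and roots were harvested separately, which gave 4 groups of 3 biological replicates each (leaves and roots of WT, leaves and roots of pdx1.3). All plants of all 4 groups were 10 days old after germination and had grown on Murashige and Skoog medium at reduced strength, with 1% sucrose and no vitamin B6. They had 16 h of light at 22°C and 8 h of darkness at 18°C, and no pathogen or salicylate treatment is named in the labels. The labels name 1 mutant allele, and no complemented line is among the samples.

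Salicylate is the plant hormone best known for defence against pathogens that live on living tissue. Its precursor isochorismate is made in the chloroplast by ICS1, exported by the transporter EDS5 and joined to glutamate by PBS3, after which the conjugate falls apart to salicylate. PAD4 and SAG101 are lipase-like proteins that each pair with EDS1, and PAD4 with EDS1 promotes salicylate build-up. NPR1 is a salicylate receptor and coactivator that works with TGA factors on target genes, NIMIN1 is a small protein that binds and restrains NPR1, and PR1, PR2 (a beta-1,3-glucanase) and PR5 (a thaumatin-like protein) are the classical targets used as markers of the response.

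Signals are Affymetrix MAS5 values, scaled on each array so that the mean without the highest and lowest 2% of probe sets was 100. Between 64.3% and 72.8% of probe sets were called present on an array. PDX1.3 itself gave 823 ± 201 (SD, n = 3) in WT leaves against 43.1 ± 6.56 in mutant leaves, and 276 ± 10.5 in WT roots against 97.9 ± 16.9 in mutant roots, so it was low in the samples titled as knockout. Summed signals of 5 leaf markers were 19641 to 25039 on leaf arrays and 321 to 941 on root arrays. Those of 8 root markers were 60.9 to 81.2 on leaf arrays and 1875 to 2769 on root arrays, and CASP1, WER, PIN2 and EXPA7 were absent on every leaf array. One array stood apart. WT leaves replicate 1 had the largest deviation from its group mean over all probe sets (an SD of 0.277 on the log2 scale, against 0.122 to 0.221 on the other arrays), and results that rest on it are given with and without it. The ratio of 3' to 5' actin signal, a measure of RNA integrity, ran from 2.97 to 8.71 and was 8.27 on WT leaves replicate 1. It was highest on pdx1.3 leaves replicate 3, where the deviation was 0.158. On pdx1.3 leaves replicate 1, with a deviation of 0.221, it was 3.12. Whether the ratio bears on the deviation was not tested.

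Detection differed between the genes. ICS1, EDS5, SAG101 and NPR1 were called present on all 12 arrays and PAD4 on 11. PR1 was present on 9 and marginal on 3, NIMIN1 on 8, PR2 on 7 and PR5 on 6. PBS3 was called present on 1 array, so most of its values lie below what the array could tell from background. In whole organs, fewer cells of a type and less RNA per cell cannot be told apart.

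**Figure D1:**
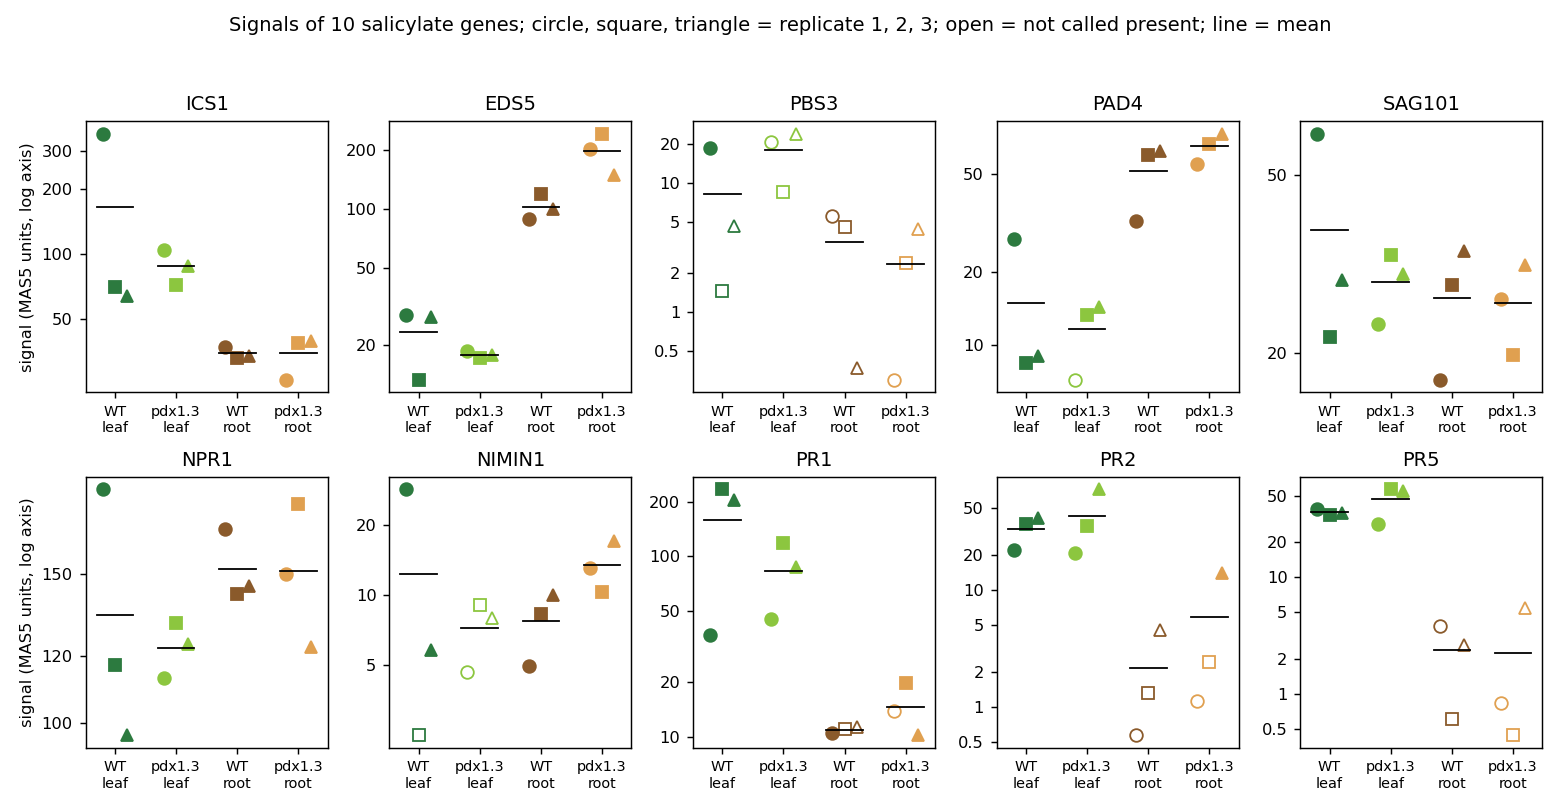
Signal of each of the 10 genes on each of the 12 arrays (log axis, MAS5 units, a separate scale for each gene) by group, with replicates 1, 2 and 3 as circle, square and triangle, open symbols where the probe set was not called present, and lines at the group means. PR1, PR2 and PR5 sit higher in leaves, EDS5 and PAD4 higher in roots, and the circle of WT leaves lies above the rest of the leaf arrays for 6 genes.

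The organs were compared first, because they set the level from which each gene could move. The 3 PR genes were all higher in leaves than in roots in both genotypes, while EDS5 and PAD4 were higher in roots in both. In WT, 6 of the 10 genes passed the test (limma on log2(signal + 16), Benjamini-Hochberg adjusted p under 0.05), 4 higher and 2 lower in leaves, against 52.5% of all probe sets, 20.9% higher and 31.7% lower. In pdx1.3, 6 of 10 passed as well, 4 higher and 2 lower, against 54.7% of all probe sets, 22.2% higher and 32.4% lower. The share of the salicylate genes that passed was thus near that of the array. The leaf and root values of a genotype did not overlap, higher and lower in leaves, for 4 and 2 genes in WT (24.5% and 34.7% of all probe sets, 59.2% together) and for 5 and 3 in pdx1.3 (25.1% and 35.4%, 60.5% together).

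PR1 read 36.8, 236 and 206 in the WT leaf replicates and 45, 118 and 87.4 in mutant leaves. In roots it read 10.4, 11.1 and 11.3 in WT and 13.9, 19.8 and 10.2 in pdx1.3. Every leaf array lay above every root array, but the leaf replicates spanned a wide range in both genotypes. The log2 difference between leaves and roots was 2.41 ± 0.47 (SE) in WT (adjusted p = 0.000731) and 1.64 ± 0.47 in pdx1.3 (adjusted p = 0.00951). With single arrays left out the WT difference ranged from 2.01 to 3.13, the highest without WT leaves replicate 1.

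PR5 gave 38.7, 34.5 and 36.1 in WT leaves and 28.9, 57.3 and 55 in mutant leaves. It was called absent on all 6 root arrays, where its signals lay between 0.438 and 5.45. Because the root values are only bounds, the leaf level was at least 15.9-fold higher in WT and at least 18.2-fold higher in pdx1.3. These folds take means of log2 signals and raise each dim value to the lowest signal called present on its array. They set geometric means of 36.4 in WT leaves and 45 in mutant leaves against raised root means of 2.28 and 2.48. The tested differences, on log2(signal + 16), were 1.52 in WT (adjusted p = 8.34e-06) and 1.77 in pdx1.3 (adjusted p = 1.81e-06).

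PR2 gave 22, 36.8 and 41.5 in WT leaves and 20.75, 35 and 72.6 in mutant leaves. It was absent on the 3 WT root arrays, at 0.571, 1.32 and 4.52, so the WT leaf level was at least 19.2-fold higher in geometric means (32.3 in leaves against 1.68 in roots after raising, adjusted p = 0.00106). In pdx1.3 roots it read 1.13, 2.42 and 14.1 and was called present only in replicate 3. The leaf to root difference there was 1.38 on the log2 scale (adjusted p = 0.0013).

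ICS1 read 362, 70.4 and 64.1 in WT leaves and 104, 72.3 and 88.15 in mutant leaves, against 37.4, 33.3 and 33.9 in WT roots and 26.3, 38.7 and 39.6 in mutant roots. All leaf arrays exceeded all root arrays, and replicate 1 of WT leaves was far above the other 5 leaf arrays. The WT difference of 1.44 ± 0.44 on the log2 scale passed (adjusted p = 0.0143), but not when only the 6 WT arrays were fitted (adjusted p = 0.0583). Its size rested on WT leaves replicate 1. With single arrays left out it ranged from 0.71, without that array, to 1.83, and it passed in each of the 12 fits. The pdx1.3 difference of 1.04 missed the threshold (adjusted p = 0.0630) in the fit of all 12 arrays as deposited. It passed with quantile normalisation (adjusted p = 0.0413), median centring (0.0236), a constant of 1 (0.0326), the filter on present calls (0.0361) and the 6 pdx1.3 arrays alone (0.00113). It also passed without the first replicate of both leaf groups (adjusted p = 0.000321) and in the fit without WT leaves replicate 1, which enters only through the shared estimate of spread (adjusted p = 6.81e-05), and likewise without WT leaves replicate 3 (adjusted p = 0.0428).

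EDS5, the exporter, ran the other way from ICS1, the synthase. It gave 28.5, 13.3 and 28.1 in WT leaves and 18.6, 17.3 and 17.9 in mutant leaves. In roots it gave 88.7, 119 and 100.2 in WT and 203, 243 and 149 in the mutant. No leaf array reached the lowest root array. The order of the group means was pdx1.3 roots, WT roots, WT leaves and pdx1.3 leaves, and neither pair of neighbours within an organ passed the test. Leaves were lower by 1.61 on the log2 scale in WT and by 2.63 in pdx1.3 (log2 differences of -1.61 ± 0.20 and -2.63 ± 0.20, adjusted p = 1.32e-05 and 1.11e-07).

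PAD4 gave 27.3, 8.44 and 9.06 in WT leaves and 7.22, 13.3 and 14.3 in mutant leaves. In roots it gave 32.4, 60.2 and 62.3 in WT and 55, 66.8 and 73.4 in pdx1.3. The organs did not overlap, and replicate 1 of WT roots was the lowest root array. The differences were -1.15 ± 0.24 in WT (adjusted p = 0.00124) and -1.56 in pdx1.3 (adjusted p = 9.75e-05) on the log2 scale. With single arrays left out the WT difference ranged from -1.42, without WT leaves replicate 1, to -1.01.

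The other 4 genes had no organ difference past the threshold in WT. NPR1 read 189, 117 and 96.8 in WT leaves and 113, 131 and 124 in mutant leaves. In roots it gave 169.8, 142 and 145 in WT and 149.8, 182 and 123 in the mutant, with a WT difference of -0.21 on the log2 scale (95% interval -0.64 to 0.23). Without WT leaves replicate 1 that difference became -0.45 and passed (adjusted p = 0.0298). SAG101, with signals from 17.4 to 62.1 over the 12 arrays, differed by 0.28 (95% interval -0.24 to 0.81) in WT and by 0.10 in pdx1.3. NIMIN1, between 2.5 and 28.6, differed by 0.15 in WT and by -0.34 in pdx1.3 (adjusted p = 0.269), the latter passing only without WT leaves replicate 1 (adjusted p = 0.0262) or with the 6 pdx1.3 arrays alone (adjusted p = 0.0375). PBS3 passed in pdx1.3 at 0.86 (adjusted p = 0.00717), but it was called absent on all arrays of both pdx1.3 groups, so no fold is given.

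**Figure D2:**
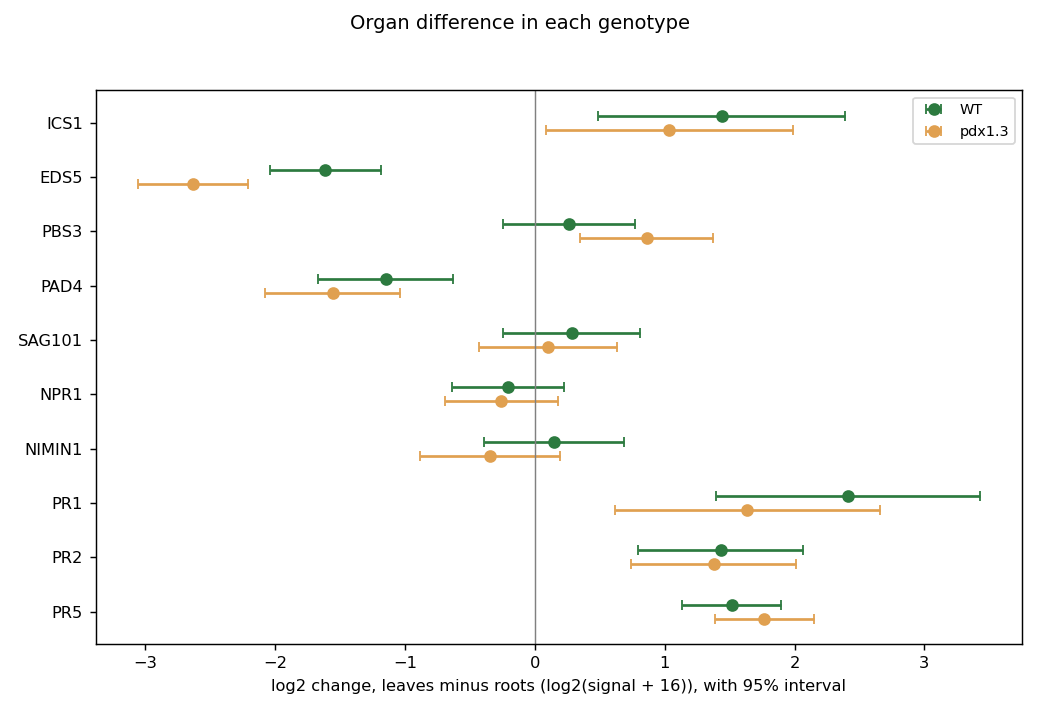
Log2 difference of leaves minus roots (log2(signal + 16)) for the 10 genes in WT and in pdx1.3, with 95% intervals. PR1, PR2 and PR5 lie to the right of 0 and EDS5 and PAD4 to the left in both genotypes, while SAG101, NPR1 and NIMIN1 span 0 in both.

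The next comparison asks whether the loss of PDX1.3 was accompanied by a change of these genes in leaves. No salicylate gene was called different between pdx1.3 and WT leaves, against 7.22% of all probe sets. At an unadjusted p under 0.05 the count was 1 of 10 (PBS3), against 21.2% of all probe sets. None of the 10 had groups that did not overlap, against 24.6% of all probe sets. The median log2 difference of the 10 was -0.15, beside 0.01 over all probe sets.

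The leaf result turned on WT leaves replicate 1. That array was the brightest of the 6 leaf arrays for 6 of the 10 genes (ICS1, EDS5, PAD4, SAG101, NPR1 and NIMIN1), against 24.7% of all probe sets, and the dimmest for PR1, against 19.3%. The first replicate of pdx1.3 leaves was the brightest for none of the 10, against 26%, and the dimmest for PR2, PR5 and PAD4, against 20%. NIMIN1 read 28.6 on WT leaves replicate 1 and 2.5 and 5.84 on the other WT leaf arrays, and SAG101 62.1 against 21.7 and 29.1. The exporter EDS5 read 28.5 against 13.3 and 28.1, so its replicate 3 was nearly as high. The synthase, both lipase-like proteins, the receptor and its binding protein were thus high on WT leaves replicate 1. The target PR1 was low there, at 36.8 against 236 and 206. PR2 read 22 there against 36.8 and 41.5, and PR5 read 38.7 against 34.5 and 36.1.

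PR1 was lower in pdx1.3 leaves by 0.60 on the log2 scale (log2 difference -0.60 ± 0.47, 95% interval -1.62 to 0.42, adjusted p = 0.531). This SE and interval rest on 1 spread shared by all 4 groups. PR1 signals spread more in leaves (SD 107 in WT, 36.6 in pdx1.3) than in roots (0.454 and 4.86). The interval is therefore narrower than the leaf values alone would give. The lowest of the 6 leaf values was a WT value. Without WT leaves replicate 1 the difference was -1.32 and passed (adjusted p = 0.0122), and without the first replicate of both leaf groups it was -1.01 (adjusted p = 0.00937). The authors' deposited table gives PR1 in leaves a fold change of -1.57, with 2 of the 9 array pairs called increased and 6 decreased, and an unadjusted p-value of 0.548.

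For ICS1 the log2 difference was -0.41 ± 0.44 (95% interval -1.37 to 0.54, adjusted p = 0.670) with all arrays and 0.31 (adjusted p = 0.308) without WT leaves replicate 1. The sign also turned for PR2, PAD4, SAG101, NPR1 and NIMIN1, to between -0.0030 and 0.20, none of which passed. The median of the 10 moved from -0.15 to 0.16, and 2 of 10 were then called, PR1 and PBS3 (0.81, adjusted p = 0.0276), against 7.16% of all probe sets in that fit. PBS3 read 18.8, 1.44 and 4.66 in WT leaves and 21.1, 8.61 and 24.3 in mutant leaves, and of these only the first WT value was called present. EDS5 and PR5 kept their sign, at -0.19 and 0.23 with all arrays and -0.08 and 0.26 without that one. The receptor NPR1 differed by -0.07 with all arrays (95% interval -0.50 to 0.36).

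**Figure D3:**
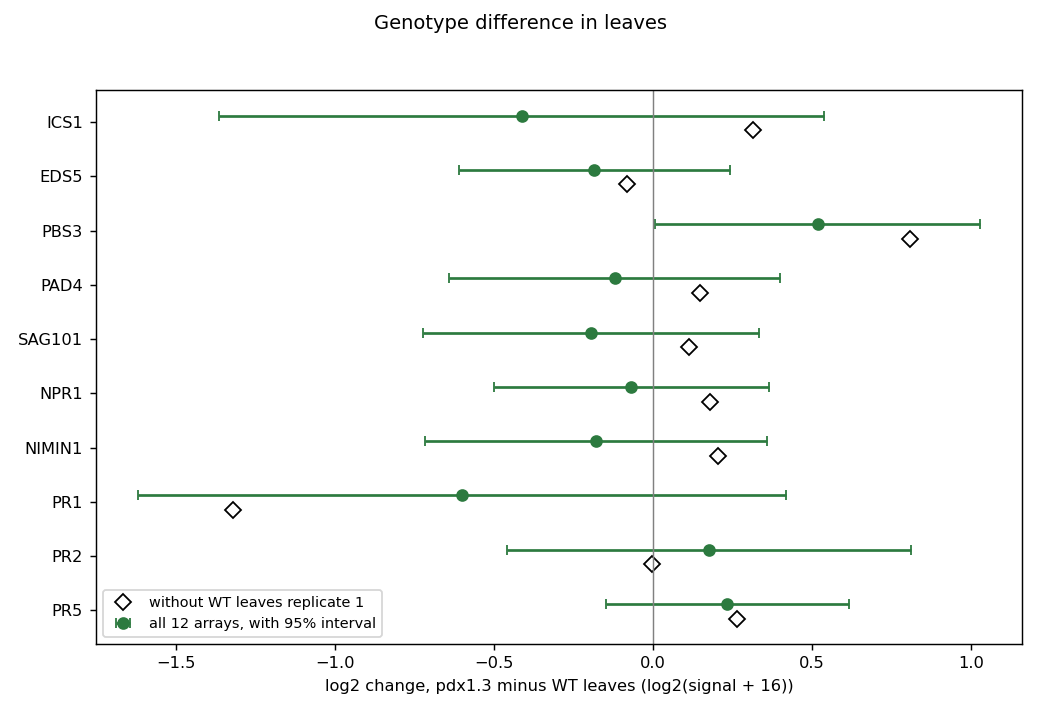
Log2 difference of pdx1.3 minus WT leaves (log2(signal + 16)) for the 10 genes, with 95% intervals, from all 12 arrays and without WT leaves replicate 1. Most values move to the right when that array is left out, ICS1 from -0.41 to 0.31, whereas PR1 moves to the left, from -0.60 to -1.32.

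In roots, too, no salicylate gene was called different between genotypes, against 0.809% of all probe sets. EDS5 came nearest. Its 3 pdx1.3 values (203, 243 and 149) all lay above the 3 WT values (88.7, 119 and 100.2), and the log2 difference was 0.84 ± 0.20 (95% interval 0.41 to 1.26, unadjusted p = 0.00104, adjusted p = 0.0845). It was the 1 gene of the 10 with an unadjusted p under 0.05, against 6.85% of all probe sets. The call depended on the setting. EDS5 passed with a constant of 64 in place of 16 (0.64, adjusted p = 0.0349), among probe sets called present throughout at least 1 group (adjusted p = 0.0440) and without pdx1.3 roots replicate 3 (1.01, adjusted p = 0.0232). The authors' deposited table gives EDS5 in roots a fold change of 1.91, with all 9 array pairs called increased and none decreased, and an unadjusted p-value of 0.0267.

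NIMIN1 was the other gene whose root groups did not overlap, at 4.94, 8.27 and 10.05 in WT and 13.1, 10.4 and 17.1 in pdx1.3. Its log2 difference was 0.31, and 2 of 10 genes higher without overlap compares with 5.77% of all probe sets. PAD4 differed by 0.29 and PR2 by 0.23, with overlapping values. PR1 differed by 0.17 (95% interval -0.85 to 1.19). That interval is wider than the root values alone would give, because the spread was shared with leaves. The remaining 5 lay between -0.08 and -0.01, and the median of the 10 was 0.08, beside 0.01 over all probe sets. Of the root arrays, pdx1.3 replicate 3 was the brightest for 5 of the 10 genes (PR2, PR5, ICS1, PAD4 and NIMIN1), against 13.3% of all probe sets. WT replicate 1 was the dimmest for 5 (PR2, EDS5, PAD4, SAG101 and NIMIN1), against 23.4%.

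**Figure D4:**
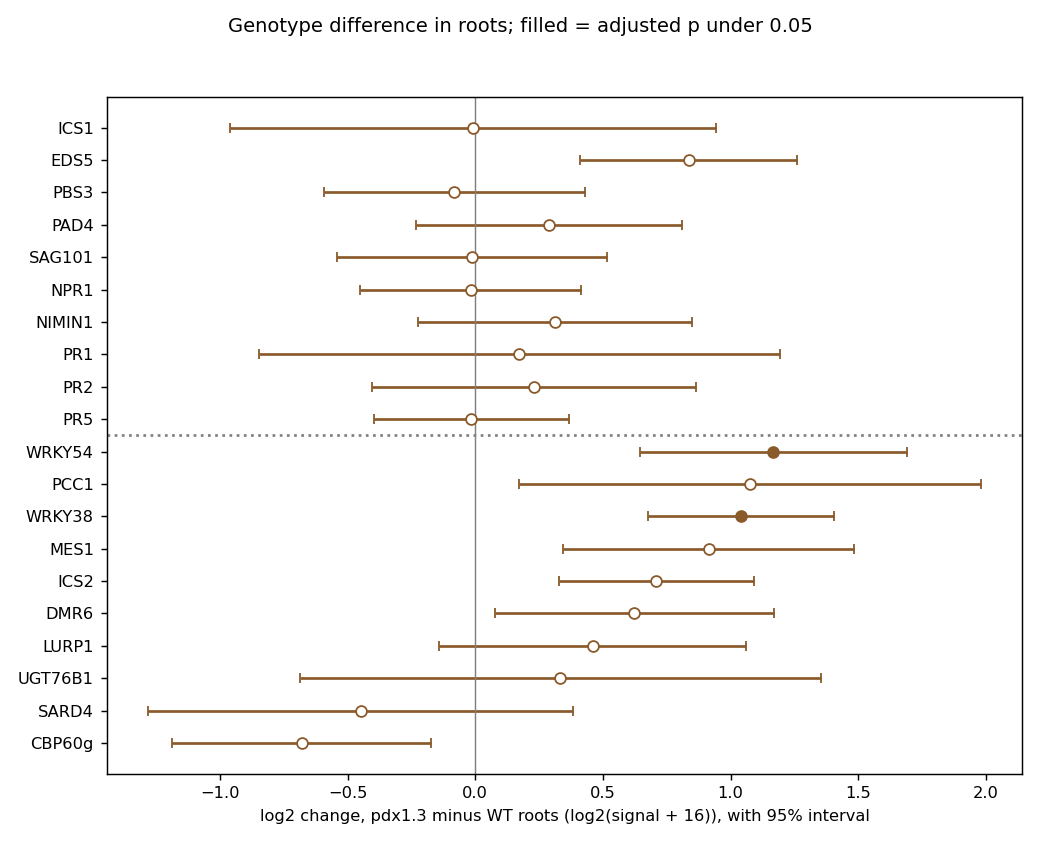
Log2 difference of pdx1.3 minus WT roots (log2(signal + 16)), with 95% intervals, for the 10 genes above the dotted line. Below the line are other genes of the pathway that are named for roots in the text. Filled symbols mark an adjusted p under 0.05 and open symbols the rest. The interval of EDS5, 0.41 to 1.26, lies wholly above 0 before adjustment for the number of probe sets tested.

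The difference between the organs in the genotype effect was tested as an interaction. None of the 10 genes passed, against 1.87% of all probe sets, and 1 of 10 had an unadjusted p under 0.05, against 13.2%. That gene was EDS5, with -1.02 ± 0.28 for the leaf difference less the root difference (adjusted p = 0.0923). It passed without WT leaves replicate 2 (-1.22, adjusted p = 0.0429) and without pdx1.3 roots replicate 3 (-1.20, adjusted p = 0.0370). PR1 gave -0.77 (adjusted p = 0.714), and -1.18 (adjusted p = 0.0287) without the first replicate of both leaf groups.

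Around these 10 genes, 50 others were listed from the same pathway in 5 lists, of which 47 were measured. They cover synthesis and its upstream regulators (12 measured), conversion of salicylate (7), the pipecolate branch (4), relatives and partners of NPR1 (16) and other salicylate-responsive genes (8). In leaves 3 of the 47 rose in pdx1.3 and none fell, beside 4.7% and 2.51% of all probe sets, and their median difference was 0.11. In roots 2 rose and none fell, beside 0.497% and 0.312%, with a median of 0.07. In the interaction 1 was higher and 1 was lower, beside 1.13% and 0.739%.

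Both synthesis genes that rose in leaves belong to families with a better-known member. ICS2, the close relative of ICS1, read 36.6, 21.8 and 31.7 in WT leaves and 79.7, 73.9 and 74.7 in mutant leaves, a log2 difference of 1.01 ± 0.18 (adjusted p = 0.00428). In roots it read 50.5, 48.4 and 47.6 in WT and 110.6, 64 and 101.8 in pdx1.3, which also did not overlap. That root difference, 0.71, did not pass (adjusted p = 0.107), except without pdx1.3 roots replicate 2 (0.91, adjusted p = 0.0258). PAL4, a phenylalanine ammonia-lyase at the entry to the phenylpropanoid route, read 21.8, 19.8 and 22.8 in WT leaves and 119, 76.2 and 79 in mutant leaves (1.498 ± 0.19, adjusted p = 0.000573). Its root groups overlapped, and the interaction passed at 1.87 (adjusted p = 0.00467). Both leaf calls held without each of the 12 arrays in turn, so neither rested on WT leaves replicate 1. CBP60g, a transcription factor that switches on ICS1, had lower values in pdx1.3 roots (12.5, 14.7 and 19.8) than in WT roots (32, 33.7 and 37.8). The difference of -0.68 did not pass (adjusted p = 0.389), except without the first replicate of both leaf groups (adjusted p = 0.0279). Those leaf arrays enter the root test only through the shared estimate of spread.

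Among the conversion genes, MES9, an esterase active on methyl salicylate, rose in pdx1.3 leaves, from 20.1, 35 and 39.6 to 70.8, 67.7 and 72.2 (0.88 ± 0.22, adjusted p = 0.0297). This call was lost without WT leaves replicate 1 (adjusted p = 0.0797) or replicate 2 (0.0545) and without any of the 3 pdx1.3 leaf arrays (0.0770, 0.0726 and 0.0797). It was also lost with quantile normalisation (adjusted p = 0.0610), with the 6 leaf arrays alone (0.0632) and without the first replicate of both leaf groups (0.133). DMR6, a salicylate hydroxylase, read 101.4, 66 and 105 in WT leaves and 124, 248 and 173 in mutant leaves (0.87, adjusted p = 0.0590). Leaving out the first mutant leaf array brought it past the threshold (1.09, adjusted p = 0.0294). So did the filter on present calls (adjusted p = 0.0356) and leaving out the first replicate of both leaf groups (1.17, adjusted p = 0.0311). MES1, a second such esterase, gave 0.91 in roots (adjusted p = 0.196). In WT, 1 of the 7 conversion genes was higher and 5 were lower in leaves than in roots, beside 20.9% and 31.7% of all probe sets.

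No pipecolate gene passed between genotypes. UGT76B1, a glucosyltransferase that acts on salicylate and on N-hydroxypipecolate, read 86.8, 3.39 and 4.59 in WT leaves and 7.16, 3.09 and 2.35 in mutant leaves. SARD4, a reductase of pipecolate synthesis, read 148, 38 and 35 in WT leaves and 20.1, 29.5 and 35.3 in mutant leaves. In both, replicate 1 of WT leaves stood above the other leaf arrays, as for ICS1. It was the brightest leaf array for 18 of the 47 listed genes, against 24.7% of all probe sets, and the dimmest for 5, against 19.3%. The first replicate of pdx1.3 leaves was the dimmest for 18 of the 47, against 20%, and the brightest for 11, against 26%.

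Of the NPR1 relatives and partners, 2 transcription factors were called higher in pdx1.3 roots, and both calls depended on the fit. WRKY38 read 15, 34.8 and 29.9 in WT roots and 69.9, 76.5 and 63.3 in mutant roots (1.04 ± 0.17, adjusted p = 0.0112). The interaction also passed (-1.12, adjusted p = 0.0349), with leaf signals between 0.479 and 5.07. The root call was lost when mutant root replicate 1 or 2 was left out (adjusted p = 0.0589 and 0.0558), and the interaction in 8 of the 12 fits that left out 1 array, with adjusted p up to 0.0885. WRKY54, a relative of the salicylate-responsive WRKY70, read 26.7, 25.5 and 28.1 in WT roots and 74.9, 117.7 and 56.6 in mutant roots (1.17 ± 0.24, adjusted p = 0.0462). Its call was lost in 9 of the 12 fits that left out 1 array, with adjusted p up to 0.186, and was kept only without WT leaves replicate 1, pdx1.3 leaves replicate 1 or pdx1.3 roots replicate 3. With a constant of 1 neither passed (adjusted p = 0.348 for WRKY38 and 0.179 for WRKY54). Neither passed with the 6 root arrays alone (adjusted p = 0.117 for WRKY38 and 0.103 for WRKY54). WRKY54 was also lost without the variance trend (adjusted p = 0.0684).

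TGA1 and TGA4, bZIP factors of one clade, did not pass in leaves. TGA1 read 73.5, 49.85 and 34.6 in WT and 73.7, 86.9 and 100.6 in pdx1.3 (0.62, adjusted p = 0.0836), and passed without WT leaves replicate 1 (0.83, adjusted p = 0.0169). TGA4 read 92.4, 66.3 and 61.8 in WT and 36.2, 53.1 and 52.2 in pdx1.3 (-0.50, adjusted p = 0.0941), and passed when each array was centred on its median (-0.57, adjusted p = 0.0404) or quantile normalised (-0.55, adjusted p = 0.0468).

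Other salicylate-responsive genes were mostly higher in leaves, as PR1, PR2 and PR5 were. In both genotypes 6 of its 8 genes were higher in leaves than in roots and none was lower, beside 20.9% higher and 31.7% lower over all probe sets in WT and 22.2% and 32.4% in pdx1.3, with a median log2 difference of 1.68 in WT beside -0.05 over all probe sets. PCC1, a small membrane-associated protein, read 293, 394 and 550 in WT leaves and was absent on the WT root arrays, so the WT leaf level was at least 12.5-fold higher (adjusted p = 3.18e-05). LURP1, a gene induced late in infection by an oomycete, was at least 14.9-fold higher in WT leaves (adjusted p = 1.98e-05). None of the 8 passed between genotypes in the fit of all 12 arrays. In roots, where the 3 WT arrays were called absent, PCC1 read 30.7, 37.4 and 28.6 in WT and 76.8, 63.9 and 124 in pdx1.3 (adjusted p = 0.517). PCC1 passed in roots without the first replicate of both leaf groups (adjusted p = 0.0393). In leaves PNP-A, a natriuretic-peptide-like protein, gave 0.77 (adjusted p = 0.424) and NUDT6, a nudix hydrolase, -0.23 (adjusted p = 0.557).

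Likeness of pattern was measured for ICS1 and PR1 as the root mean square difference of log2(signal + 16), each gene centred on its own mean over the 12 arrays. Nearest to ICS1 were LECRKA4.1 (a lectin receptor kinase, 0.253), AACT1 (an acyltransferase, 0.269) and PTAC9 (0.311), against 0.829 for a flat profile. All 3 were brightest on WT leaves replicate 1, as ICS1 was. They were picked for likeness over these same arrays, so this is no separate evidence. LECRKA4.1 read 184 there and 30.6 and 41.7 on the other WT leaf arrays. Nearest to PR1 were MYB77 (0.301), DIC2 (0.385) and AT2G33180 (0.389), against 1.18 for a flat profile. MYB77 read 172, 513 and 435 in WT leaves and 226, 284 and 301 in mutant leaves. As for PR1, which it was picked to resemble, its lowest leaf value was WT replicate 1. The lowest leaf value of AT2G33180 was instead pdx1.3 replicate 1, at 144 against 177 on WT replicate 1. No ICS1 neighbour was among the PR1 neighbours.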

How the data were processed

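Affymetrix ATH1 arrays were hybridised with RNA of 4 groups of 3 samples each. The authors deposited linear intensity signals and detection calls made with MAS5 in GCOS, per the file headers and the submitters' processing notes, together with ratios (fold changes) and p-values of their own comparisons, which are quoted only where named. The number of arrays limits precision. The genotype entry of the labels reads opposite to the titles in all 12 samples, so groups follow the titles, which the PDX1.3 signals bear out. From the deposited signals, log2(signal + 16) was computed for 22746 probe sets, after 64 controls were left out. limma 3.58.1 in R 4.3.3 fitted 1 mean per group over 12 arrays (eBayes with trend), and Benjamini-Hochberg adjustment covered all probe sets. Each probe set had 1 spread shared by the 4 groups, although leaves and roots spread unequally for PR1 and ICS1. The fit was tested on simulated data with the same spread in every group and no deviating array, so that test does not cover either case. Single loci were assigned to 21526 probe sets, and 21261 of these matched the symbol table. Besides the 10 genes, named genes were those called between genotypes or in the interaction, the 2 of each list with the smallest p in each organ, and the 3 nearest in pattern to ICS1 and PR1. Genes and lists were chosen with earlier results of these data known. Alternatives changed scaling, constant, filter, arrays fitted, variance model and source table. Promoter sequences were not analysed here.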

Additional observations from a re-analysis of the deposited data

Results flagged for a closer look

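The genotype difference differed between leaves and roots, by the interaction test (limma, adjusted over all probe sets), for 3 of the genes described. These were PDX1.3 itself, with an interaction of -2.43 on the log2 scale (adjusted p = 0.000665), PAL4, with 1.87 (adjusted p = 0.00467), and WRKY38, with -1.12 (adjusted p = 0.0349). The WRKY38 result is weak. It was lost with a constant of 1 (adjusted p = 0.208), without the first replicate of both leaf groups (0.0751) and in 8 of the 12 fits that left out 1 array. WRKY38 leaf signals, from 0.479 to 5.07, were mostly near background, which limits any leaf difference. TGA1 had higher values in pdx1.3 leaves and lower values in pdx1.3 roots than in WT, with no overlap in either organ. Its interaction of 1.05 did not pass (adjusted p = 0.0827). Groups of 3 were not tested for outlying arrays.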

How the results depend on the processing

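Of 98 counts recomputed under other settings, 90 stayed within 1.5 times the value reported. The probe sets called in roots fell from 184 to 83 with a constant of 1 and to 61 with the 6 root arrays alone, those called in leaves from 1642 to 516 with the 6 leaf arrays alone, and those of the interaction from 425 to 248 with a constant of 1. Of the 10 salicylate genes, 1 was called in roots with a constant of 64 and 1 with the filter on present calls, which kept 16873 probe sets. Without the first replicate of both leaf groups 1 was called in leaves and 1 in the interaction. The interaction has no fit with the arrays of 1 organ. Leaving out each array in turn gave 1051 to 1661 calls in leaves, 75 to 384 in roots and 137 to 554 in the interaction, and 0 to 2, 0 to 1 and 0 to 1 salicylate genes.

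Scaling moved the split of calls. Centring arrays on their medians gave 840 higher and 841 lower in leaves (1070 and 572 as reported), 7917 and 5775 between WT organs (4750 and 7203 as reported, with the median of all probe sets moving from -0.05 to 0.12) and 6724 and 6387 between pdx1.3 organs. No salicylate gene changed sign with it.

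Only uncalled differences changed sign. With a constant of 64 the PR2 interaction was 0.0338. Without the first replicate of both leaf groups the leaf differences were 0.21 for ICS1, 0.27 for PAD4, 0.20 for SAG101, 0.23 for NPR1, 0.29 for NIMIN1 and 0.14 for NUDT6, the interactions 0.0588 for PR2, 0.22 for ICS1, 0.22 for SAG101 and 0.25 for NPR1, and the WT organ differences -0.0285 for PBS3, -0.0233 for SAG101 and -0.24 for NIMIN1. With single arrays left out, leaf differences ranged from -0.17 to 0.47 for PR2, -0.81 to 0.31 for ICS1, -0.26 to 0.15 for PAD4, -0.41 to 0.11 for SAG101, -0.25 to 0.18 for NPR1, -0.43 to 0.20 for NIMIN1 and -1.20 to 0.0083 for UGT76B1. Root differences ranged from -0.0240 to 0.38 for PR2, -0.14 to 0.0537 for PR5, -0.0797 to 0.12 for ICS1, -0.20 to 0.0021 for PBS3, -0.18 to 0.11 for SAG101 and -0.14 to 0.11 for NPR1. Interactions ranged from -0.40 to 0.24 for PR2, -0.80 to 0.32 for ICS1, -0.40 to 0.12 for SAG101 and -0.23 to 0.20 for NPR1. WT organ differences ranged from -0.0285 to 0.47 for PBS3, -0.0233 to 0.50 for SAG101 and -0.24 to 0.40 for NIMIN1, and the pdx1.3 organ difference of SAG101 from -0.0085 to 0.20. The cause was not tested.

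Replicate numbers did not pair the genotypes within an organ. Deviations of same-numbered arrays correlated there between -0.211 and -0.00703, and 0 of 6 arrays in either organ correlated best with their own number in the other genotype. Between leaves and roots they correlated at -0.0719, -0.0958 and -0.0852 in WT and at 0.163, -0.173 and 0.348 in pdx1.3. Whether leaf and root samples of 1 number share plants was not tested, and the organ tests treat them as independent. With the replicate number as a block, 1372 probe sets were called in leaves, 147 in roots and 338 in the interaction, and 0 salicylate genes in each. WRKY54 in roots was no longer called (adjusted p = 0.0748). Dim genes (PBS3, and PR2 and PR5 in roots) are limited by signal over background.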
